A study of Mus musculus with 30 samples.

Results

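The *Twist*, *Prrx*, *Snai* and *Zeb* genes encode transcription factors that mark and shape the limb bud mesenchyme. The group was formed by gene symbol and holds 8 genes, *Twist1*, *Twist2*, *Prrx1*, *Prrx2*, *Snai1*, *Snai2*, *Zeb1* and *Zeb2*. All 8 were found among the 50833 genes of the count table and among the 55052 genes of the FPKM table, and all 8 passed the filter on low counts in each comparison.

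TWIST1 and TWIST2 are basic helix-loop-helix (bHLH) factors that bind DNA as dimers with E proteins. PRRX1 and PRRX2 are paired-type homeodomain factors of limb and craniofacial mesenchyme, and SNAI1, SNAI2, ZEB1 and ZEB2 are zinc finger repressors that bind E-boxes and silence epithelial genes such as *Cdh1*. *Twist1* is required for limb bud outgrowth, and *Prrx1* is a widely used marker of early limb mesenchyme.

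RNA was measured in forelimb buds of wild-type Swiss Albino mouse embryos. Pregnant females were injected intraperitoneally at E10.5 with Wnt-C59 (C59), which blocks the acyltransferase porcupine and thereby the secretion of WNT ligands, or with DMSO, its solvent. Forelimb buds were collected 1, 6, 12, 18 and 24 h later, which gave 10 groups of 3 libraries, 30 in all. By the study's methods each replicate was 1 pair of forelimb buds, embryos of both sexes were used, and the 2 injections differed in carrier as well as in drug (DMSO in PBS for controls, a solution with methylcellulose and Tween-20 for C59), so that carrier and drug cannot be told apart.

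The libraries held between 18188636 and 38974885 counts. Replicates of a group differed by more than sampling noise in every pair, and their chi-square divided by its degrees of freedom ran from 3.21 to 47.6. C59 18 h replicate 3 stood apart from the other two libraries of its group (47.6 and 39.9), and the 18 h fold changes are therefore given with and without it. The tissue label was checked by *Tbx5*, a forelimb factor, which ranged from 35.8 to 71.3 FPKM, while the hindlimb factors *Tbx4* and *Pitx1* reached at most 5.55 and 1.964 FPKM. *Axin2*, a direct WNT target, stood at 108, 118 and 104 CPM (counts scaled to library size with TMM factors) in DMSO at 6 h and at 29.0, 29.2 and 26.5 CPM in C59, a log2 fold change of -1.97 ± 0.06 (SE; edgeR adjusted p = 7.55e-11). Its log2 fold change was -1.45 ± 0.06 at 12 h (edgeR adjusted p = 1.4e-07), and it did not pass at 18 h (-0.16, edgeR adjusted p = 0.333, and -0.17, edgeR adjusted p = 0.181, without that library) or at 24 h (-0.08, edgeR adjusted p = 0.507).

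Between genes, levels were compared as FPKM, which are scaled to transcript length. In DMSO limb buds at 1 h *Twist1* was highest at 175 FPKM ± 6.50 (SD, n = 3), followed by *Prrx1* at 119 ± 3.87 and *Prrx2* at 87.4 ± 2.49. *Snai1* (32.5 ± 0.993) and *Twist2* (31.0 ± 4.13) came next and overlapped between libraries. In CPM, which are not scaled to length, *Snai1* averaged 70.3 and *Twist2* 11.0, and the limits of both *Twist2* measures are given below. *Zeb1* (11.4 ± 0.726) and *Snai2* (11.0 ± 0.401) overlapped as well, and *Zeb2* was lowest at 1.83 ± 0.258. *Twist1*, *Prrx1* and *Prrx2* led in each of the 5 DMSO groups with no overlap between neighbours.

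After C59 the order of the leading genes changed. At 6 h *Prrx1* led at 99.1 FPKM ± 6.70, *Prrx2* followed at 78.5 ± 3.38 and *Twist1* was behind both at 73.1 ± 1.57, with no overlap among the 3. At 12 h *Twist1* (90.6 ± 5.52) and *Prrx1* (88.9 ± 1.10) overlapped, and *Prrx2* was at 36.0 ± 2.202. By 18 h *Twist1* was again the highest of the 8 at 166 FPKM ± 12.6.

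**Figure D1:**
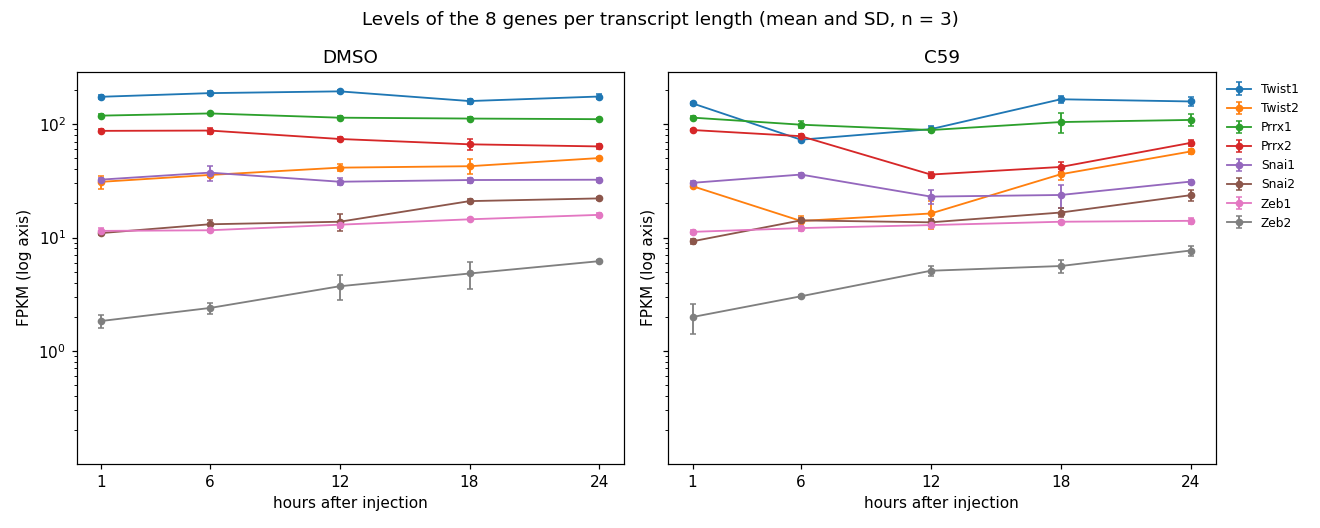
Mean FPKM (log axis) of the 8 genes against hours after injection in DMSO (left) and C59 (right), with SD over 3 libraries as bars. In DMSO *Twist1*, *Prrx1* and *Prrx2* keep their order at each time, while in C59 *Twist1* drops to 73.1 FPKM at 6 h, below *Prrx1* at 99.1 and *Prrx2* at 78.5.

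C59 was compared with DMSO at each time to ask when the 8 genes depended on WNT secretion. A gene passed when the Benjamini-Hochberg adjusted p of edgeR's quasi-likelihood test was below 0.05, adjusted over all protein-coding genes tested. At 1 h, 1 of the 8 passed, *Twist1*, which was lower, as were 1.61% of all genes tested. At 6 h, 4 were lower (*Twist1*, *Twist2*, *Prrx1* and *Prrx2*) against 11.4% of all genes, and 1 was higher (*Zeb2*) against 8.2%. At 12 h, 5 were lower (the same 4 and *Snai1*) against 25.5% of all genes, and *Zeb2* was again the 1 higher against 22%. Expression beyond 2-fold lower was reached by 2 genes at 6 h (*Twist1* and *Twist2*, background 0.74%) and by 3 at 12 h (with *Prrx2*, background 1.43%). The study picked *Twist1* and *Twist2* for a panel from these same libraries, so their fall is not independent evidence.

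At 18 h, 1 gene passed, *Prrx2*, which was lower (background 3.62%). At 24 h, 0 of the 8 passed with edgeR, against 3.56% of all genes lower and 2.88% higher. At 24 h 2 genes, *Twist1* and *Zeb1*, had an unadjusted p below 0.05, a share that was not counted over all genes. With DESeq2 1 gene (*Zeb1*) passed, beside 1101 of all 13675 genes tested. With limma on FPKM 0 passed, beside 485 and 452 of all 13894 genes at pseudocounts of 1 and 0.1. The median log2 fold change of the 8 was -0.05, -0.13, -0.47, -0.24 and 0.00 at 1, 6, 12, 18 and 24 h, while that of all genes tested stayed between 0.00 and 0.02. Since whole limb buds were measured, fewer cells that express a gene and less RNA of it per cell cannot be told apart.

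**Figure D2:**
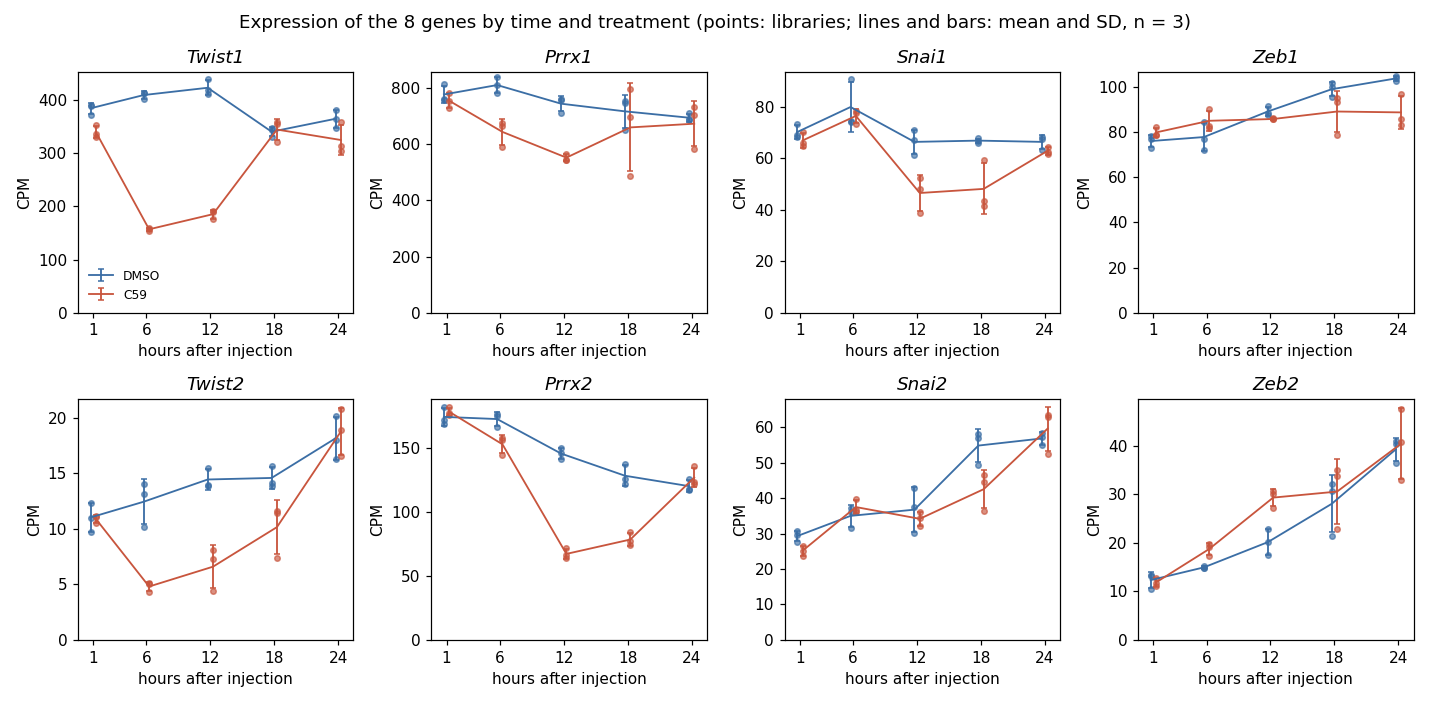
Expression in CPM against hours after injection for each of the 8 genes, with 1 point per library and the mean and SD (n = 3) of DMSO (blue) and C59 (red) limb buds. *Twist1* and *Twist2* in C59 lie below all DMSO libraries at 6 and 12 h, *Prrx2* separates most at 12 h, and *Zeb2* in C59 lies above DMSO at 6 and 12 h.

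*Twist1* (ENSMUSG00000035799, mm10 chromosome 12, 33957671 to 33959829) fell at 6 h by about as much as *Twist2*. Its level was 414, 402 and 414 CPM in the DMSO libraries and 154, 158 and 159 CPM in the C59 libraries. No library of one treatment came near the other, and the C59 mean was 38.3% of the DMSO mean (log2 fold change -1.39 ± 0.04, edgeR adjusted p = 5.63e-11). At 12 h the DMSO libraries had 412, 419.7 and 439 CPM and the C59 libraries 191, 176 and 190.0 CPM. The groups were again separate, with a log2 fold change of -1.19 ± 0.05 (edgeR adjusted p = 1.4e-07).

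By 18 h the *Twist1* difference was gone within the spread of the libraries. The DMSO libraries were at 347, 345 and 331 CPM and the C59 libraries at 355, 322 and 358 CPM, which overlap (log2 fold change 0.04 ± 0.09, edgeR adjusted p = 0.84, and 0.0042, edgeR adjusted p = 0.972, without C59 18 h replicate 3). At 24 h the values were 365, 382 and 349 CPM against 358, 313 and 304 CPM (-0.16 ± 0.07, edgeR adjusted p = 0.213), and without C59 24 h replicate 1 the fold change was -0.24 (edgeR adjusted p = 0.0201).

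At 1 h *Twist1* was at 392, 390.0 and 373 CPM in DMSO and 331, 353 and 337 CPM in C59. The groups did not overlap, and the log2 fold change was -0.18 ± 0.04 (edgeR adjusted p = 0.0315). This early call was not stable. It was lost without DMSO 1 h replicate 1 or 2 or any of the 3 C59 1 h libraries (log2 fold change from -0.21 to -0.16 over the 6 libraries left out, edgeR adjusted p from 0.00882 to 0.165). *Axin2* moved by -0.19 ± 0.04 at the same time (edgeR adjusted p = 0.0282).

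*Twist2* (ENSMUSG00000007805, chromosome 1, 91801461 to 91848028), the close relative of *Twist1*, followed it at 6 and 12 h. It had 10.2, 13.1 and 14.1 CPM in DMSO at 6 h and 5.09, 5.003 and 4.33 CPM in C59. The libraries were separate, with a log2 fold change of -1.37 ± 0.15 (edgeR adjusted p = 2.54e-05). At 12 h it had 13.9, 14.0 and 15.5 CPM in DMSO and 8.06, 7.31 and 4.41 CPM in C59, a log2 fold change of -1.13 ± 0.19 (edgeR adjusted p = 0.000586). Without C59 12 h replicate 3, the lowest library, the fold change was -0.90 and still passed (edgeR adjusted p = 0.00388).

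The counts of *Twist2* were small, 96 to 587 per library, and stood for little of the transcript. Of its 3174 annotated exonic bases, 1477 (46.5%) are shared with exons of *Gm29100*, an annotated antisense gene (chromosome 1, 91798528 to 91802937), and the strand used for counting was not stated. The FPKM were computed with the unstranded setting by the study's methods, so that in these values reads of both genes cannot be told apart by strand. The count, set against the FPKM and the library total, corresponded to a median of 0.344 kb of *Twist2* transcript over the 30 libraries, against 2.04 kb for *Twist1*. What the *Twist2* count leaves out was not tested. The deposited FPKM therefore stand beside it, and they fell likewise, from 35.4, 34.3 and 37.3 FPKM to 15.4, 14.0 and 12.6 FPKM at 6 h and from 40.0, 44.6 and 39.6 FPKM to 20.2, 17.4 and 11.3 FPKM at 12 h. On the log2(FPKM + 1) scale the differences were -1.29 (limma adjusted p = 2.76e-06) and -1.33 (limma adjusted p = 0.00022). *Gm29100* itself had 0.608, 0.608 and 0.488 FPKM in C59 at 6 h against 1.22, 0.818 and 0.835 FPKM in DMSO.

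At 18 h the 2 measures of *Twist2* parted. In CPM the C59 libraries (11.6, 11.4 and 7.38) lay below the DMSO libraries (14.2, 15.7 and 13.9), a log2 fold change of -0.51 ± 0.17 that did not pass (edgeR adjusted p = 0.119). Without C59 18 h replicate 3, the lowest library, it was -0.33 (edgeR adjusted p = 0.0694). In FPKM the groups overlapped (32.9, 35.4 and 40.3 against 50.0, 38.6 and 39.3). At 24 h *Twist2* was at 18.9, 16.6 and 20.8 CPM in C59 and 18.0, 20.2 and 16.3 CPM in DMSO, which overlap, while its FPKM were higher in each C59 library (61.0, 55.3 and 56.3 against 49.0, 51.8 and 50.2) without passing (0.19 on the log2 scale, limma adjusted p = 0.0982).

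The upstream sequences of *Twist1*, *Twist2* and *Snai1* are shown because these genes fell while their windows, the 250 bases before the RefSeq start on GRCm38.p6, hold no annotated exon of the gene. Windows of *Prrx1* and *Prrx2* lie partly or wholly in annotated exons and are not printed. Capitals mark TATAAA (the letters of the TATA box motif) or CACCTG (an E-box variant bound by SNAI and ZEB factors). Both were searched on both strands, anywhere in the window, together with CTTTGA (the core of the TCF/LEF motif), and the matches do not overlap.
*Twist1* chr12:33957421-33957670 (+): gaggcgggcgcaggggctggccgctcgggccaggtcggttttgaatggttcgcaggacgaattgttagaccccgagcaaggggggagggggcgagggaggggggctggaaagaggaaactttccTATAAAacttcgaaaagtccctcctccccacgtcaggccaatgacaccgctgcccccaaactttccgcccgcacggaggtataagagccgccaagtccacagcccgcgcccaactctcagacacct
*Twist2* chr1:91801211-91801460 (+): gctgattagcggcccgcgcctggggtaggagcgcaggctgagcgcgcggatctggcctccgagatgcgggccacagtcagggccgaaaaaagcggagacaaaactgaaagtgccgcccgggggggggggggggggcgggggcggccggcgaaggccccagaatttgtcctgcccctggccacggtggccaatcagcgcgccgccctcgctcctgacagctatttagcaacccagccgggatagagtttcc
*Snai1* chr2:167537945-167538194 (+): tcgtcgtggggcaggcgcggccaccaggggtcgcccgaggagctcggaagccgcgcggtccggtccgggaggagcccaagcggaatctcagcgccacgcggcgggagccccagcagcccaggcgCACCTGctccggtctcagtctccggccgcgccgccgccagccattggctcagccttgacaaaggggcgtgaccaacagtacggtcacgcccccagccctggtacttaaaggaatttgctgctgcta
Across 32817 upstream windows of this length, TATAAA was present in 12.4%, CACCTG in 17.2% and CTTTGA in 13.8%. *Twist1* held 1 TATAAA, *Snai1* held 1 CACCTG, and *Twist2* held none of the 3 motifs. CTTTGA was in none of the windows of *Twist1*, *Twist2*, *Prrx1*, *Prrx2*, *Snai1* and *Zeb2*. These are matches of letters, whatever their distance from the start, and give no information on binding or on a working TATA box.

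*Prrx1* (ENSMUSG00000026586, chromosome 1, 163245119 to 163313710, minus strand) fell moderately. It stood at 783, 840.3 and 809.7 CPM in DMSO at 6 h and at 674, 592 and 666 CPM in C59. The groups did not overlap, and the log2 fold change was -0.34 ± 0.05 (edgeR adjusted p = 0.000519). At 12 h the levels were 759, 713 and 762 CPM against 545, 566 and 545 CPM, which left the C59 mean at 74.2% of the DMSO mean (-0.43 ± 0.04, edgeR adjusted p = 1.78e-05). Later the groups overlapped. At 18 h the C59 libraries were widely spread (796, 696 and 488 CPM, against 651, 754 and 747 CPM in DMSO), and the log2 fold change of -0.10 ± 0.16 turned to 0.07 without C59 18 h replicate 3 (edgeR adjusted p = 0.744 and 0.583).

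*Prrx2* (ENSMUSG00000039476, chromosome 2, 30834972 to 30881251) fell later than the *Twist* genes. At 6 h it had 176, 166 and 174 CPM in DMSO and 157, 144 and 156 CPM in C59, a small difference of -0.18 ± 0.05 on the log2 scale (edgeR adjusted p = 0.0189). Without DMSO 6 h replicate 3, C59 6 h replicate 2 or C59 6 h replicate 3 it did not pass (edgeR adjusted p = 0.0653, 0.112 and 0.0521). Nor did it pass with a spread estimated from all 30 libraries (edgeR adjusted p = 0.0523). With limma on FPKM it did not pass at pseudocounts of 1 and 0.1 (limma adjusted p = 0.0986 and 0.101). At 12 h the levels were 141, 145 and 149.6 CPM in DMSO and 63.5, 71.7 and 66.0 CPM in C59. The groups were far apart and the C59 mean was 46.2% of the DMSO mean (-1.11 ± 0.06, edgeR adjusted p = 4.88e-07).

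*Prrx2* was the only one of the 8 genes that passed at 18 h in the edgeR test on all 6 libraries. It was at 137, 125 and 122 CPM in DMSO and 73.8, 77.2 and 83.8 CPM in C59, with no overlap (-0.69 ± 0.10, edgeR adjusted p = 0.0053). It passed whichever of the 6 libraries was left out, with log2 fold changes from -0.75 (without C59 18 h replicate 3) to -0.64. At 24 h the C59 libraries (135, 123 and 122 CPM) overlapped the DMSO libraries (117, 126 and 118 CPM).

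**Figure D3:**
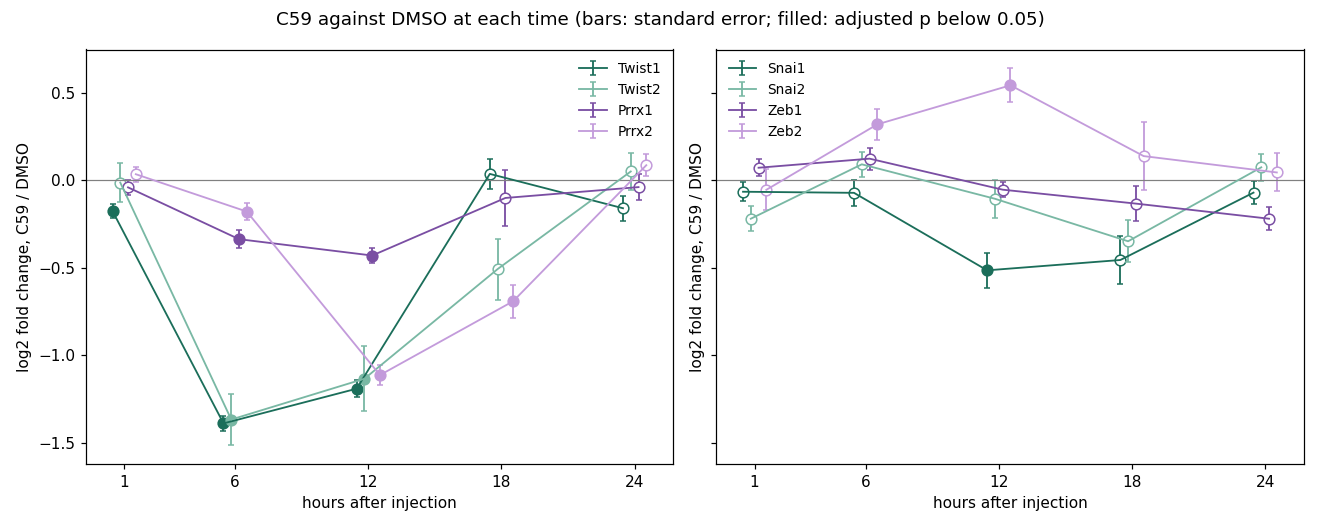
Log2 fold change of C59 against DMSO at each time for the *Twist* and *Prrx* genes (left) and the *Snai* and *Zeb* genes (right), with standard errors as bars and filled points where the edgeR adjusted p was below 0.05. *Twist1* and *Twist2* are lowest at 6 h (-1.39 and -1.37), *Prrx2* is lowest at 12 h (-1.11), and *Zeb2* is highest at 12 h (0.54).

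*Snai1* (ENSMUSG00000042821, chromosome 2, 167538195 to 167542814) was not changed at 6 h beyond the spread of its libraries. It stood at 91.0, 74.3 and 74.6 CPM in DMSO and 77.7, 73.5 and 78.3 CPM in C59 (-0.07 ± 0.07, edgeR adjusted p = 0.533), and the sign turned without DMSO 6 h replicate 1 (0.04). At 12 h it had 70.9, 61.4 and 67.0 CPM in DMSO and 52.5, 48.3 and 38.9 CPM in C59. All C59 libraries were lower, by -0.52 ± 0.10 on the log2 scale (edgeR adjusted p = 0.00181).

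At 18 h *Snai1* depended on 1 library. C59 replicates 1 and 2 were at 43.3 and 41.6 CPM and replicate 3 at 59.6 CPM, all below the DMSO libraries at 67.8, 66.2 and 66.8 CPM. The log2 fold change of -0.46 ± 0.14 did not pass (edgeR adjusted p = 0.0859), and without C59 18 h replicate 3 it was -0.64 and passed (edgeR adjusted p = 0.000617). It also passed with DESeq2 on all 6 libraries (adjusted p = 0.0351). At 24 h the levels of 64.6, 62.4 and 61.9 CPM in C59 overlapped those in DMSO.

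*Snai2* (ENSMUSG00000022676, chromosome 16, 14705852 to 14709385) did not pass at any of the 5 times. It had 36.1, 37.3 and 31.6 CPM in DMSO and 36.2, 39.7 and 36.6 CPM in C59 at 6 h, and 37.4, 42.8 and 30.04 CPM against 36.0, 32.1 and 34.4 CPM at 12 h. The groups overlapped at both times. They were separate at 1 h (27.7, 29.6 and 30.7 CPM against 25.2, 23.8 and 26.5 CPM) and at 18 h (49.4, 56.9 and 58.1 CPM against 46.5, 44.6 and 36.5 CPM), where the log2 fold changes of -0.22 ± 0.07 and -0.35 ± 0.12 missed the threshold (edgeR adjusted p = 0.117 and 0.116). Without C59 18 h replicate 3 the 18 h value was -0.25 (edgeR adjusted p = 0.0733).

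*Zeb1* (ENSMUSG00000024238, chromosome 18, 5591864 to 5775467) also passed at none of the 5 times. Its log2 fold changes ran from -0.22 at 24 h to 0.12 at 6 h, with -0.13 at 18 h (edgeR adjusted p = 0.443, and -0.06, edgeR adjusted p = 0.554, without C59 18 h replicate 3). Without DMSO 6 h replicate 2 the 6 h value was 0.18 and passed (edgeR adjusted p = 0.0347). At 24 h it was at 105, 103 and 104 CPM in DMSO and 83.4, 86.0 and 97.1 CPM in C59. These groups were separate, but the difference of -0.22 ± 0.06 missed the threshold (edgeR adjusted p = 0.0604), and without C59 24 h replicate 3 it was -0.28 and passed (edgeR adjusted p = 0.0186).

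*Zeb2* (ENSMUSG00000026872, chromosome 2, 44983632 to 45117395, minus strand) was the 1 gene of the 8 that passed the test as higher in C59. At 6 h it had 15.2, 14.8 and 14.8 CPM in DMSO and 17.3, 19.8 and 19.2 CPM in C59 (0.32 ± 0.09, edgeR adjusted p = 0.0194). This call was lost without DMSO 6 h replicate 3, C59 6 h replicate 2 or C59 6 h replicate 3 (edgeR adjusted p = 0.0563, 0.0737 and 0.0608). It was also lost with a spread estimated from all 30 libraries (edgeR adjusted p = 0.189). With limma on FPKM it did not pass at pseudocounts of 1 and 0.1 (limma adjusted p = 0.0755 and 0.0826). At 12 h the C59 libraries (30.1, 30.6 and 27.3 CPM) were above the DMSO libraries (20.2, 22.8 and 17.5 CPM), a log2 fold change of 0.54 ± 0.10 (edgeR adjusted p = 0.00103). In FPKM the 12 h groups overlapped (4.655, 5.699 and 4.915 in C59, 3.313, 4.761 and 3.066 in DMSO). The FPKM difference was 0.38 on the log2 scale and passed narrowly (limma adjusted p = 0.0415). Set against FPKM and library totals, the *Zeb2* counts corresponded to between 3.85 and 7.14 kb of transcript, so the 2 measures varied against each other. At 18 h the groups overlapped (33.7, 35.1 and 22.9 CPM against 21.4, 32.2 and 30.6 CPM), and the log2 fold change of 0.14 (edgeR adjusted p = 0.709) was 0.30 without C59 18 h replicate 3 (edgeR adjusted p = 0.212) and turned to -0.02 without DMSO 18 h replicate 1. At 24 h they overlapped in CPM (32.9, 40.8 and 47.6 against 36.4, 40.3 and 41.0), although the FPKM were higher in each C59 library (6.95, 7.53 and 8.55 against 6.11, 6.11 and 6.34; limma adjusted p = 0.103).

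Marker genes of other cell types were compared at the times when *Zeb2* was higher, beside the 8.2% of all genes higher at 6 h and the 22% at 12 h. The shares of all genes lower were 11.4% at 6 h and 25.5% at 12 h. Of 5 tested Schwann cell and neural crest markers 2 were higher at 6 h and 3 at 12 h, led by *Erbb3* (1.23 ± 0.11 on the log2 scale, edgeR adjusted p = 8.5e-06), and *Sox10*, which defines these cells, ranged from 0.571 to 7.59 FPKM over the 30 libraries. The summed level of the 6 listed genes was 13.5 to 16.9 FPKM in C59 and 12.7 to 15.7 FPKM in DMSO at 6 h, which overlap, and 23.1 to 29.2 against 15.3 to 17.9 FPKM at 12 h. Of 6 macrophage markers 0 passed at 6 h with edgeR and 2 were higher at 12 h, with sums of 8.29 to 8.91 FPKM in C59 against 4.84 to 5.96 FPKM at 12 h. Of 6 endothelial markers 0 were higher and 1 lower at 6 h and 3 were higher at 12 h, when they summed to 79.7 to 90.2 FPKM against 61.7 to 70.2 FPKM. Single muscle markers went both ways, with 2 of 6 higher and 1 lower at 6 h and 2 higher and 3 lower at 12 h. Their summed level was higher in C59 at both times. It was 43.0 to 48.6 against 28.0 to 29.8 FPKM at 6 h and 52.6 to 66.9 against 35.1 to 45.8 FPKM at 12 h. The part of these cells in the rise of *Zeb2* was not tested.

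Ratios within a gene pair are a description and were not tested. In the *Prrx* pair the treatments lay close at 6 h and far apart at 12 h. The FPKM of *Prrx1* divided by that of *Prrx2* was slightly lower in each C59 library at 6 h (1.283, 1.225 and 1.278 against 1.343, 1.538 and 1.379 in DMSO). At 12 h the ratio was higher in C59, with 1.63, 1.48 and 1.53 in DMSO and 2.61, 2.35 and 2.47 in C59. At 18 h it was 1.44, 1.82 and 1.85 in DMSO and 3.22, 2.68 and 1.73 in C59, where C59 18 h replicate 3 alone lay within the DMSO range. The ratio of *Twist1* to *Twist2* at 6 h was 5.55, 5.27 and 5.03 in DMSO and 4.63, 5.24 and 5.91 in C59, which overlap. It was separate at 18 h (3.37, 4.14 and 3.88 in DMSO, 5.09, 4.32 and 4.42 in C59) and, in the other direction, at 24 h (3.596, 3.54 and 3.35 in DMSO, 2.88, 2.83 and 2.58 in C59). *Zeb1* to *Zeb2* was lower in each C59 library at 12 h (2.78, 2.28 and 2.58 against 3.88, 2.90 and 4.02). That ratio was also lower in each C59 library at 6 h (4.10, 3.67 and 4.24 against 4.45, 4.63 and 5.63). It overlapped at 18 h and was again lower in each C59 library at 24 h (2.083, 1.717 and 1.719 against 2.495, 2.694 and 2.504). In DMSO the *Twist1* to *Twist2* ratio was 5.69 ± 0.623 (SD, n = 3) at 1 h and 3.49 ± 0.129 at 24 h. All ratios with *Twist2* carry the limits of its FPKM given above.

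**Figure D4:**
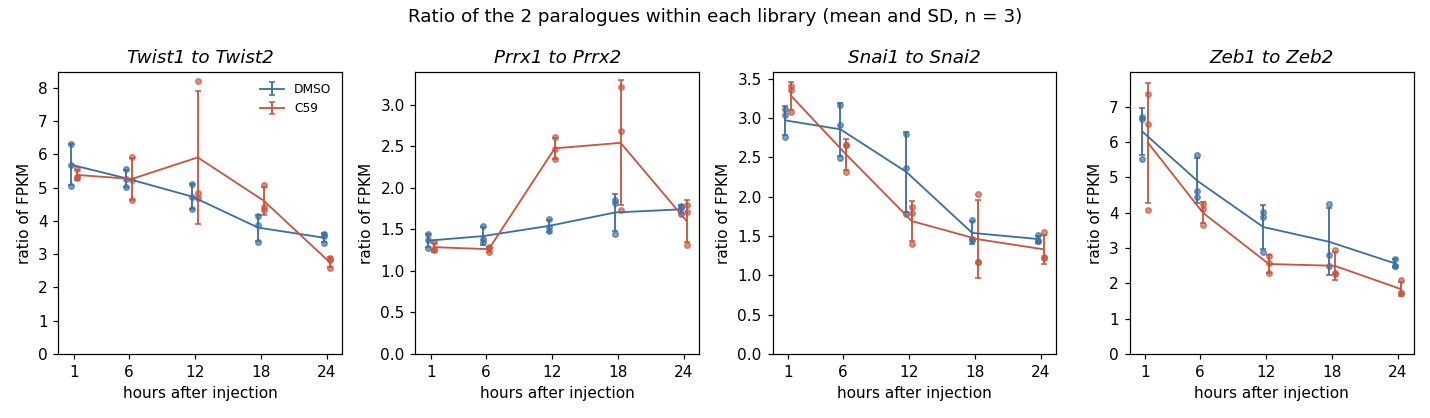
Ratio of the FPKM of the 2 genes of each pair within a library, against hours after injection, with points for libraries and mean and SD (n = 3) for DMSO (blue) and C59 (red). The *Prrx1* to *Prrx2* ratio in C59 at 12 h (2.48 on average) lies above all DMSO libraries, while the *Twist1* to *Twist2* ratios of the treatments overlap at 6 h and are separate at 18 and 24 h.

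The change of the C59 effect between neighbouring times was tested as an interaction. From 6 to 12 h the effect became more negative for 2 of the 8 genes, *Prrx2* and *Snai1* (background 11.5%), and less negative for 1, *Twist1* (background 6.59%). *Prrx2* changed most, by -0.94 ± 0.07 on the log2 scale (edgeR adjusted p = 9.25e-07). The changes of *Twist1* (0.20 ± 0.06) and *Snai1* (-0.45 ± 0.14) were close to the threshold (edgeR adjusted p = 0.031 and 0.0307). *Twist1* lost its call in 6 of 12 fits that each left out 1 library and *Snai1* in 7 of 12, with the adjusted p reaching 0.0789 and 0.102. *Zeb1* did not pass (-0.18, edgeR adjusted p = 0.134) and did without DMSO 6 h replicate 2 (-0.22, edgeR adjusted p = 0.0445).

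Between 12 and 18 h the effect rose for 2 genes (background 4.94%), *Twist1* by 1.23 ± 0.10 (edgeR adjusted p = 9.46e-06) and *Prrx2* by 0.43 ± 0.11 (edgeR adjusted p = 0.0303). The *Prrx2* call was lost in 7 of 12 fits that each left out 1 library (adjusted p up to 0.0862). *Twist2* rose by 0.63 ± 0.28, which did not pass (edgeR adjusted p = 0.185), whereas it passed without C59 18 h replicate 3 (0.81, edgeR adjusted p = 0.0364) and in FPKM (1.10, limma adjusted p = 0.0122). *Prrx1* did not pass (0.33, edgeR adjusted p = 0.282), and without the same library it did (0.50, edgeR adjusted p = 0.00262). From 18 to 24 h, *Prrx2* was the 1 gene that passed (background 3.53%), with a rise of 0.77 ± 0.11 (edgeR adjusted p = 0.00187). *Snai1* (0.37 ± 0.16, edgeR adjusted p = 0.177) passed in that interval without C59 18 h replicate 3 (0.56, edgeR adjusted p = 0.000987).

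DMSO limb buds at 24 h were compared with those at 1 h to describe the course without the drug. Of the 8 genes 4 rose (*Twist2*, *Snai2*, *Zeb1* and *Zeb2*, background 30.2%) and 2 fell (*Prrx1* and *Prrx2*, background 29.2%), shares that are to be read against backgrounds of this size. *Zeb2* alone exceeded 2-fold (background 10.6%), from 10.45, 13.3 and 13.2 CPM to 36.4, 40.3 and 41.0 CPM (1.67 ± 0.09, edgeR adjusted p = 1.91e-09). *Snai2* rose from 27.7, 29.6 and 30.7 CPM to 55.0, 57.2 and 58.5 CPM (0.96 ± 0.06, edgeR adjusted p = 8.37e-09).

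*Twist2* rose by 0.72 ± 0.11 (edgeR adjusted p = 5.87e-05) and *Zeb1* by 0.45 ± 0.04 (edgeR adjusted p = 1.01e-06) over these hours. *Prrx2* fell from 168, 182 and 172 CPM to 117, 126 and 118 CPM (-0.54 ± 0.05, edgeR adjusted p = 1.94e-07), and *Prrx1* by a small amount (-0.16 ± 0.04, edgeR adjusted p = 0.00468). *Twist1* (-0.08, edgeR adjusted p = 0.168; 0.0075 in FPKM with limma) and *Snai1* (-0.08, edgeR adjusted p = 0.202) did not pass. This comparison and the C59 comparisons at 1 and 24 h share DMSO libraries.

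The genes whose pattern over the 30 libraries was most like a member were listed by the Pearson correlation r of log2(CPM + 1), as a description in which all points share the same treatments and times. For *Twist1* they were *Axin2* (0.968), *Notum* (0.957), both WNT feedback genes, and *Grem1* (0.952), a BMP antagonist. For *Twist2* they were *Myc* (0.897), *Tnfrsf19* (0.895) and *Apcdd1* (0.887). *Prrx1* was closest to *Abce1* (0.936), *Larp4* (0.934) and *Dhx29* (0.928), and *Prrx2* to *Cdc45* (0.972), *Uba2* (0.965) and *Immt* (0.964). *Snai1* was closest to *Tuba1b* (0.869), *Mad1l1* (0.867) and *Lmnb2* (0.863), and *Snai2* to *Zcchc24* (0.943), *Septin8* (0.925) and *Dclk1* (0.922). *Zeb1* was closest to *Tmtc2* (0.859), *Rrbp1* (0.855) and *Plxdc2* (0.853), and *Zeb2* to *Flrt2* (0.981), *Smarca2* (0.977) and *Ebf1* (0.974). Among the members r was highest between *Snai2* and *Zeb2* (0.869), *Prrx2* and *Snai1* (0.858) and *Twist1* and *Twist2* (0.773), and lowest between *Prrx2* and *Zeb2* (-0.669).

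Counts in gene lists stand beside the shares of all genes tested, which were 11.4% lower and 8.2% higher at 6 h and 25.5% lower and 22% higher at 12 h. The bHLH partners of TWIST factors and the ID proteins that antagonise them were lower in 3 of 9 genes at 6 h and in 7 of 9 at 12 h, with 1 of 9 higher at 12 h. Their median log2 fold change was -0.09 at 6 h and -0.40 at 12 h, beside 0.01 and 0.02 over all genes. *Hand1*, a bHLH partner with at most 1.06 FPKM in any library, was the 1 gene beyond 2-fold at 12 h (-1.51 ± 0.35, edgeR adjusted p = 0.0052). At 6 h no gene of the list was, and its ends were *Hand1* (-0.51, edgeR adjusted p = 0.232) and *Id4* (0.46, edgeR adjusted p = 0.0514). The relatives of the members in the TWIST and Snail families were tested for 4 of 8 genes, of which 1 was higher at 6 h and 2 were higher and 1 lower at 12 h. Their ends were *Scrt1* (0.77, edgeR adjusted p = 0.135) and *Tcf15* (0.17, edgeR adjusted p = 0.138) at 6 h, and *Msc* (0.63, edgeR adjusted p = 0.00332) and *Tcf15* (-0.71, edgeR adjusted p = 0.000409) at 12 h. *Scrt1* had at most 0.306 FPKM in any library.

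Paired-type homeobox genes, relatives of *Prrx1* and *Prrx2*, were lower in 4 of 6 genes at both 6 and 12 h and higher in 0, with medians of -0.32 and -0.48. *Alx1* was lowest at 6 h (-0.83 ± 0.16, edgeR adjusted p = 0.00225). The highest values, of *Shox2* at 6 h (-0.01) and *Pitx1* at 12 h (0.33), did not pass (edgeR adjusted p = 0.934 and 0.337). Of 7 corepressors used by SNAI and ZEB factors 2 were lower at 6 h (all genes 11.4%) and 4 at 12 h (all genes 25.5%), by small amounts (medians -0.07 and -0.11). *Hdac2*, a histone deacetylase, was lowest at both times (-0.20 and -0.25, edgeR adjusted p = 0.00591 and 0.000225), and *Ctbp1* at 6 h (0.01, edgeR adjusted p = 0.944) and *Ajuba* at 12 h (0.09, edgeR adjusted p = 0.166) were highest.

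Of 11 mesenchymal adhesion and matrix genes 6 were higher and 1 lower at 6 h (all genes 8.2% and 11.4%), and 5 were higher and 1 lower at 12 h (all genes 22% and 25.5%), with a median of 0.17 at both times. *Col1a1* was highest at both times (0.35 ± 0.07 and 0.51 ± 0.08, edgeR adjusted p = 0.00301 and 0.000415). The lowest values were those of *Tnc* at 6 h (-0.50, edgeR adjusted p = 0.156) and *Col3a1*, a fibrillar collagen, at 12 h (-0.48 ± 0.08, edgeR adjusted p = 0.000491). Of 12 epithelial genes that SNAI and ZEB factors repress 1 was higher at 6 h, a share like that of all genes (8.2%), and 6 were higher at 12 h (all genes 22%), and 0 were lower at either time with edgeR (medians 0.08 and 0.44). *Ocln*, a tight junction protein with at most 0.788 FPKM in any library, was highest at both times (0.43, edgeR adjusted p = 0.255, and 0.90 ± 0.26, edgeR adjusted p = 0.0169). *Cldn7* at 6 h (-0.25, edgeR adjusted p = 0.118) and *Crb3* at 12 h (-0.04, edgeR adjusted p = 0.918) were lowest.

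*Cdh1*, the epithelial cadherin best known as a target of the SNAI and ZEB repressors, did not pass at 6 h (0.07 ± 0.06, edgeR adjusted p = 0.491) or at 12 h (0.26 ± 0.13, edgeR adjusted p = 0.114). Surface ectoderm markers, a list that shares *Cdh1* and *Epcam* with the epithelial genes, were higher in 6 of 8 at 12 h (all genes 22%). Their summed level at 12 h was 151 to 205 FPKM in C59 against 99.4 to 116 FPKM in DMSO. At 6 h that sum was 102 to 107 FPKM against 93.9 to 109 FPKM, which overlap. The part of the ectoderm in the higher epithelial genes was not tested.

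Markers of the forelimb mesenchyme did not move together. At 6 h 3 of 6 were lower and 1 higher (all genes 11.4% and 8.2%). At 12 h 4 of 6 were lower and 2 higher (all genes 25.5% and 22%), and 2 were beyond 2-fold lower (all genes 1.43%). *Msx1* (-3.01 ± 0.11, edgeR adjusted p = 1.2e-07) and *Lhx2* (-1.14 ± 0.11, edgeR adjusted p = 2.19e-05) were beyond 2-fold lower, as was *Msx1* at 6 h (-2.04 ± 0.05, edgeR adjusted p = 6.66e-12), whereas *Pdgfra* rose at 12 h (0.56 ± 0.06, edgeR adjusted p = 3.41e-05). Their summed level was 201 to 207 FPKM in C59 and 238 to 253 FPKM in DMSO at 6 h, and 202 to 217 against 226 to 235 FPKM at 12 h. Cartilage progenitor markers were higher in 5 of 6 at 12 h (all genes 22%), all 5 beyond 2-fold (all genes 3.53%). They summed to 269 to 382 FPKM in C59 against 134 to 142 FPKM in DMSO. At 6 h 2 of the 4 tested were higher (all genes 8.2%), and the list summed to 145 to 169 against 113 to 119 FPKM. The part of these shifts in the lower *Twist* and *Prrx* levels was not tested.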

How the data were processed

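PolyA RNA of 30 forelimb bud libraries was sequenced as paired reads on a NovaSeq, and libraries were assigned to 10 groups by their labels. By the study's methods replicates were different embryos, from 3 or more litters per condition and time. Per the study's methods, the authors removed adapters (Cutadapt 1.16), aligned reads to mm10 (STAR 2.7.0e) and used their own annotation. The deposited counts are raw reads per gene, and the strand setting of the counting was not given in the sources used here. FPKM values were deposited as well, made by the authors with Cufflinks 2.2.1 in its unstranded setting. Gene classes came from GENCODE M21 (GRCm38), in which 205 genes (0.00676% of counts) had no match. Genes of X, Y and M were not in the count table. RefSeq (GRCm38.p6) gave upstream windows for 6 of the 8 members.

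The edgeR 4.0.16 quasi-likelihood test (two-sided, TMM factors, R 4.3.3) was run on the autosomal protein-coding genes that passed filterByExpr (minimum count 10, minimum total 15), 13076 to 13794 per comparison. A time was fitted on its own 6 libraries and an interaction on 12. P-values were adjusted by Benjamini-Hochberg over the genes tested, the thresholds were 0.05 and, for calls beyond 2-fold, a log2 fold change of 1, and standard errors were derived from the F statistic. The alternatives were DESeq2 1.42.0 as a test, DESeq2 size factors or upper-quartile factors in edgeR, no filter, a filter at a mean of 1 CPM, every gene of the count table, a spread estimated from all 30 libraries, limma 3.58.1 on log2 FPKM with pseudocounts of 1 and 0.1, glmTreat, the replicate number as a block, and each library left out in turn. Scripts were tested on simulated data.

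The named genes were the 8 members, *Axin2*, the 3 genes most correlated with each member (mean of 5 CPM or more), and, in each gene list at 6 and 12 h, up to 4 genes beyond 2-fold or, where there was none, the highest and the lowest. A result that this rule selects is not reported here. *Cdh1* and the marker genes were named in addition, after their values were seen. The members and the gene lists were chosen with earlier results of these data known.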

Additional observations from a re-analysis of the deposited data

Results flagged for a closer look

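For 3 of the 8 genes the C59 effect differed between neighbouring times in the edgeR interaction test. *Twist1* changed by 0.20 on the log2 scale from 6 to 12 h (edgeR adjusted p = 0.031) and by 1.23 from 12 to 18 h (edgeR adjusted p = 9.46e-06). *Prrx2* changed by -0.94 from 6 to 12 h (edgeR adjusted p = 9.25e-07), by 0.43 from 12 to 18 h (edgeR adjusted p = 0.0303) and by 0.77 from 18 to 24 h (edgeR adjusted p = 0.00187). *Snai1* changed by -0.45 from 6 to 12 h (edgeR adjusted p = 0.0307). Each pair of neighbouring intervals shares the libraries of the time between them. Groups of 3 libraries are too small for a test of single outlying libraries.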

How the results depend on the processing

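Some values at single times kept their direction and an adjusted p below 0.05 under every alternative except glmTreat, which tests against 2-fold. They were *Twist1*, *Twist2* and *Prrx1* at 6 h, the 6 genes that passed at 12 h and *Prrx2* at 18 h. At 1 h the count of members that passed went from 1 to 0 with the spread of all 30 libraries, with limma at both pseudocounts and with the replicate block. Of all genes 360 of 13076 passed in the main fit, and 178 of 14039, 203 and 198 of 13341 and 260 of 13076 there. At 6 h the count of members went from 5 to 3 with the spread of all 30 libraries and with limma at both pseudocounts, without *Prrx2* and *Zeb2*. Over all genes 2565 of 13100 passed in the main fit, 1713 of 14039 with that spread and 1520 and 1506 of 13400 with limma. At 18 h the count of members went from 1 to 2 with DESeq2 and to 4 with the spread of all 30 libraries (*Twist2*, *Snai1* and *Snai2* in addition to *Prrx2*). All genes that passed went from 949 of 13413 to 1486 of 13413 and to 3855 of 14039 in the same fits. At 24 h the count of members went from 0 to 1 with DESeq2, without the filter and with the spread of all 30 libraries. All genes that passed were 881 of 13675 in the main fit and 1101 of 13675, 1078 of 16865 and 672 of 14039 in these. Calls beyond 2-fold went to 1 at 6 h and to 1 at 12 h when glmTreat tested against that fold, and from 1 to 2 in DMSO at 24 h against 1 h with limma and a pseudocount of 0.1. Over all genes the DMSO calls went from 1625 of 13580 to 1461 of 13737, and calls with glmTreat were not counted. Interactions that passed went from 3 to 2 between 6 and 12 h with upper-quartile factors and with limma at both pseudocounts (*Snai1*, adjusted p = 0.0704, 0.0987 and 0.0964) and with the spread of all 30 libraries (*Twist1*, adjusted p = 0.116), from 2 to 1 between 12 and 18 h with upper-quartile factors (*Prrx2*, adjusted p = 0.0597), and from 1 to 2 between 18 and 24 h with the spread of all 30 libraries. All genes that passed went from 2458 of 13565 to 2294 of 13565, 1984 and 1856 of 13599 and 1734 of 14039 between 6 and 12 h. They went from 1162 to 1167 of 13694 between 12 and 18 h. Between 18 and 24 h they went from 960 of 13794 to 2307 of 14039. With limma *Prrx2* did not pass between 12 and 18 h (adjusted p = 0.09 and 0.0912), while *Twist2* did (adjusted p = 0.0122 and 0.0121). *Prrx1* in DMSO at 24 h against 1 h did not pass with the spread of all 30 libraries (adjusted p = 0.195) or with limma (adjusted p = 0.0561). Apart from changes that follow from fewer libraries, the cause was not tested.

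Leaving out single libraries gave 0 to 1 members passing at 1 h, 3 to 6 at 6 h, 6 to 6 at 12 h, 1 to 2 at 18 h, 0 to 1 at 24 h and 6 to 6 in DMSO, with 2 to 3 beyond 2-fold at 12 h. For interactions it gave 1 to 3 from 6 to 12 h, 1 to 4 from 12 to 18 h and 1 to 2 from 18 to 24 h. How many of all genes passed in the fits that left out a library was not counted. The sign turned in 3 values that had not passed, with ranges of -0.13 to 0.04 for *Snai1* at 6 h (0.037 without DMSO 6 h replicate 1), -0.26 to 0.07 for *Prrx1* at 18 h (0.072 without C59 18 h replicate 3) and -0.02 to 0.30 for *Zeb2* at 18 h (-0.022 without DMSO 18 h replicate 1). *Twist1* in DMSO at 24 h against 1 h, -0.08 in edgeR, was 0.0075 and 0.0076 with limma at pseudocounts of 1 and 0.1.

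The labels give treated and control libraries the same replicate numbers, but deviations from the group means correlated between same-numbered libraries by only -0.133 to 0.103, so the numbers were not taken as pairs. With the replicate block, *Twist1* at 1 h did not pass (log2 fold change -0.18, adjusted p = 0.0738), and at the 4 later times the counts of members that passed were 5, 6, 1 and 0. Over all genes 2138 of 13100, 6539 of 13324, 478 of 13413 and 762 of 13675 passed at those times. Depth limits *Twist2* most among the 8, with 96 to 587 counts per library.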
